A study of Camellia sinensis with 9 samples.

Results

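In leaves of the tea cultivar ‘Anji Baicha’ (Camellia sinensis), 108 of the 179951 assembled unigenes dipped at the white stage, that is, their expression was low in white leaves and high in the leaves before and after. A unigene is a transcript sequence put together from the reads without a genome. The members were chosen from the measured values themselves: the expression value, FPKM (the number of fragments scaled to the length of the unigene and to all mapped fragments), had to be above 0 at every stage and at least 5 at 1 or more stages, and log2(FPKM + 1) had to fall by at least 1 into the white stage and rise by at least 1 out of it. Folds between stages are therefore folds of FPKM + 1, except where a plain ratio of FPKM is named. Of the 14168 unigenes that passed the filters on FPKM, the 108 members were 0.762%. Unigenes that the study tabulated for carotenoid, chlorophyll and theanine biosynthesis were to be left out, but none of them met the rule, so 0 were dropped.

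The leaves came from 4-year-old plants at the yellow-green (YG), white (W) and re-greened (G) stages, with 3 libraries per stage and 9 in all. The leaves of each stage were taken from another place on the shoot and on another date, the G leaves in warmer weather, so stage cannot be told apart from leaf position, date or temperature. All plants were of the same cultivar, and no treatment is named. The values hold 1 FPKM per unigene and stage, combined by the authors over the libraries, so the spread between plants is not known, no test was possible, and every difference below is a description of 3 values.

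In albino tea cultivars the loss of leaf colour can be temporary. In pale leaves the chloroplasts, the organelles that hold chlorophyll and carry out photosynthesis, are poorly developed. In plants generally, many nuclear genes respond to the state of the chloroplast, to the age of the leaf and to temperature. The files pair no unigene of the dip with a gene name, so the members are given by unigene identifier and no function is attached to them.

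Among the unigenes that passed the filters, the members lay near the middle of the expression range before and after the white stage. Their median FPKM was 6.22 at YG, 1.41 at W and 7.16 at G, and the ranges were 2.00 to 65.0, 0.344 to 20.1 and 2.24 to 87.5. Ranked among the 14168 unigenes that passed the filters, the median member stood at percentile 45.3 at YG, 4.33 at W and 47.2 at G. The rule asks for a low W, and members with W under 5 passed the filter through YG or G. These ranks thus partly follow from the choice. They also hold only among the unigenes that passed: 117990 were above 0 at every stage, and 14168 of those reached an FPKM of 5. At W, 38 members were under an FPKM of 1, 60 were from 1 to under 5, and 10 were at 5 or more. Together the members held 0.272% of the summed FPKM at YG, 0.0696% at W and 0.306% at G.

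**Figure D1:**
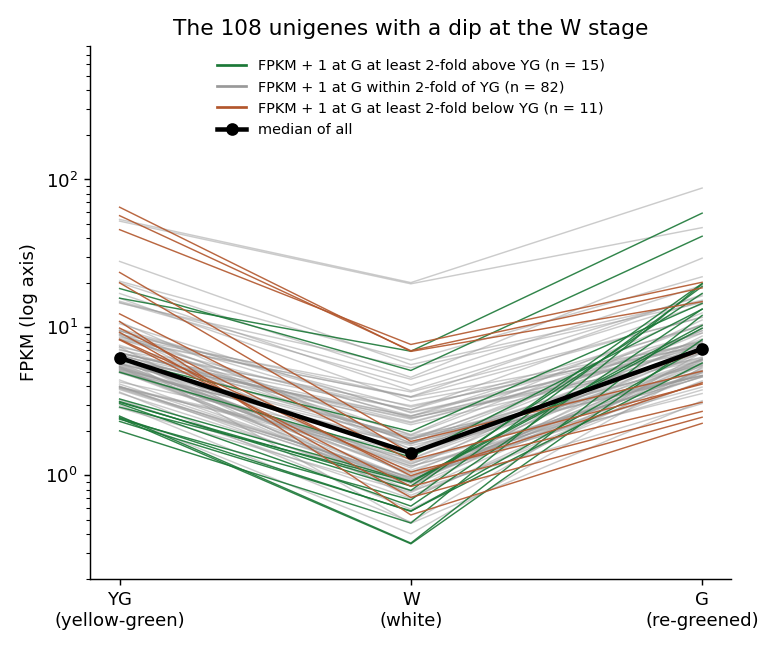
FPKM of each of the 108 members at the YG, W and G stages on a log axis, 1 line per unigene, coloured by how FPKM + 1 at G compares with that at YG, with the median of all members in black. The median line runs from 6.22 at YG through 1.41 at W to 7.16 at G, and 82 lines have FPKM + 1 at G within 2-fold of that at YG (76 by the plain FPKM plotted).

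Both steps were used to choose the members, so their sizes are descriptive only, and both rest on the same W value, so a W value that was too low by error alone would make a dip. Among all unigenes that passed the filters, 7.83% were 2-fold or more below YG at W, and 12.5% were 2-fold or more above W at G. The step from YG to W in the members had a median of -1.44 on the log2(FPKM + 1) scale and reached -3.19, and the step from W to G had a median of 1.67 and reached 3.81. Over all unigenes passing the filters the medians of the same steps were 0.03 and 0.08. As plain ratios of FPKM, without the added 1, W was between 0.0491 and 0.438 of YG with a median of 0.240, and G was between 2.17 and 41.4 times W with a median of 4.53.

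The depth of a dip was taken as the smaller of its fall and its rise, and no member lost and regained 4-fold on this scale. The median depth was 1.24, 27 members reached 1.5, and 26 lay under 1.1, close to the threshold. The deepest was unigene129211, with an FPKM of 8.89 at YG, 1.51 at W and 9.15 at G and a depth of 1.98. It came back almost exactly to its starting level. Unigene150035 followed with 6.25, 0.903 and 6.81 (depth 1.93), and unigene87435, which was also among the 10 most abundant members, with 20.05, 4.60 and 29.4 (depth 1.91). All 3 ended above their YG level, unigene129211 and unigene150035 only slightly.

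The other members among the 10 deepest had depths between 1.71 and 1.83. Unigene32634 had an FPKM of 10.9 at YG, 1.49 at W and 7.82 at G, and unigene22047 had 17.0, 3.73 and 15.0. Both returned to slightly below the YG level. Unigene13876, with 9.06, 1.86 and 10.5, returned to slightly above it, and unigene131007, with 5.37, 0.843 and 9.88, ended at 1.84 times it as a plain ratio. Unigene127833 had 6.41, 0.708 and 4.96, unigene87661 had 9.23, 0.979 and 5.47, and unigene147385 had 20.01, 1.41 and 6.97. In the last of these the fall was much larger than the recovery.

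At the threshold, the members just inside were unigene74312 (8.30 at YG, 1.05 at W and 3.12 at G), unigene124382 (4.27, 1.63 and 5.77), unigene132884 (8.24, 2.53 and 6.08) and unigene17940 (6.06, 2.51 and 10.4), with depths between 1.003 and 1.007. Those just outside were unigene87091 (30.9, 15.0 and 45.2), unigene11251 (26.9, 11.0 and 22.9), unigene88082 (4.58, 1.83 and 8.83) and unigene88267 (14.5, 6.89 and 18.9), with depths of 0.98 to 0.99. The unigenes on either side of the threshold thus differed little, and 3 of those outside were more abundant than those inside.

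**Figure D2:**
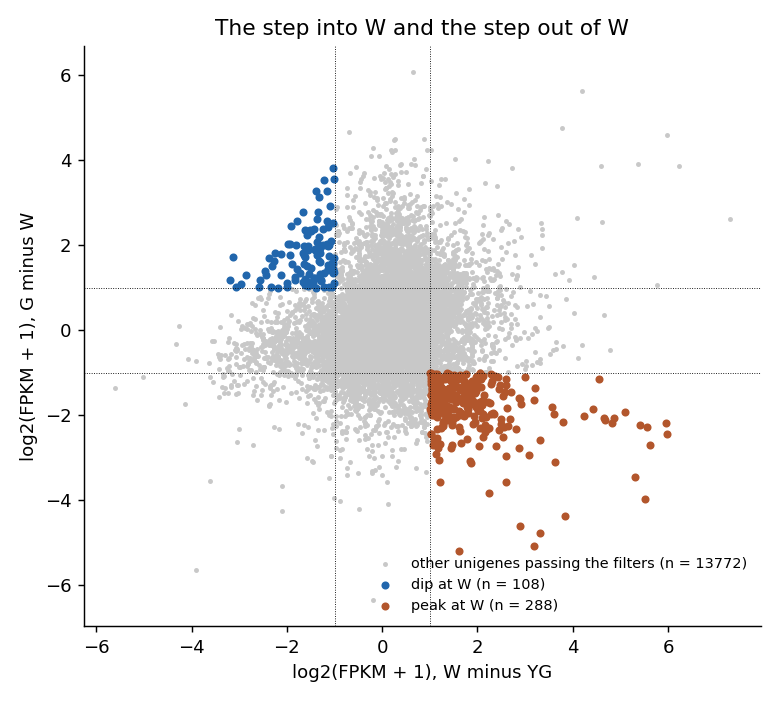
Difference of log2(FPKM + 1) between W and YG (horizontal axis) and between G and W (vertical axis) for the 14168 unigenes that passed the filters, with dotted lines at 2-fold. The 108 dips lie in the upper left corner and the 288 unigenes that peak at W in the lower right; both steps use the same W value, so a single low or high W value moves a point along this diagonal.

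Of all the patterns in which 1 stage stood apart, a low white stage was the least common. These patterns are not alike. W is the middle stage in time, so it stands apart only where the change reverses direction. A steady rise or fall can be counted under both YG and G. W was at least 2-fold below both other stages in the 108 members, whereas YG was the low stage in 1094 unigenes and G in 776. In the mirror image of the dip, W was at least 2-fold above both other stages in 288 unigenes, 2.03% of those that passed the filters. YG stood alone at the top in 925 unigenes and G in 1569. In each of the 13 alternative settings for which these counts were made, dips at W were fewer than unigenes lowest at YG alone, fewer than those lowest at G alone and fewer than peaks at W. The numbers highest at YG or G alone were not recomputed there. No spread between libraries is available to test the difference between 108 and 288, and dips and peaks are both read from the 1 W value of a unigene.

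**Figure D3:**
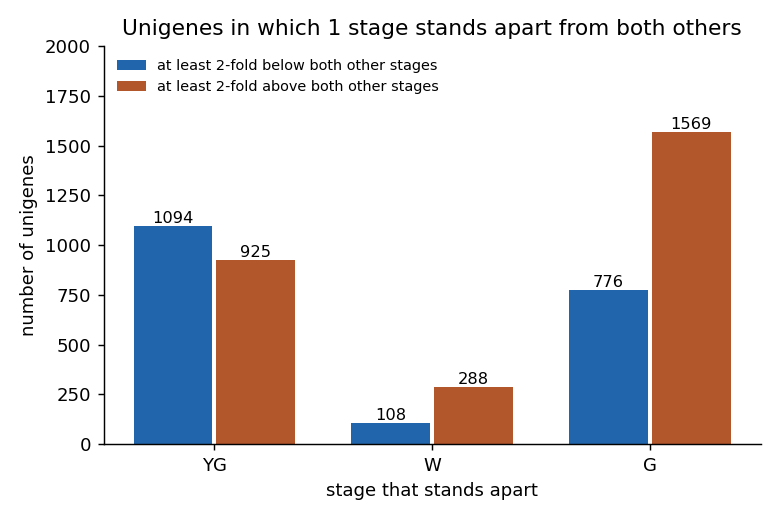
Number of unigenes, of the 14168 that passed the filters, in which the stage on the horizontal axis was at least 2-fold below (blue) or above (brown) both other stages on the log2(FPKM + 1) scale. W has the shortest bar in each colour, 108 low and 288 high. W is the middle stage in time, so only a reversal is counted there, whereas a steady rise or fall can be counted under both YG and G.

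How far the members recovered differed among them. G was higher than YG in 63 members and lower in 45, so 58.3% were higher, against 54.1% of all unigenes that passed the filters. The median difference of log2(FPKM + 1) between G and YG was 0.24 in the members and 0.11 in all. In 82 members FPKM + 1 at G lay within 2-fold of that at YG. In 15 members (13.9%) G was 2-fold or more above YG, and in 11 (10.2%) it was 2-fold or more below, beside 22.8% and 15.9% of all unigenes that passed the filters. By the plain ratio of FPKM, the same 108 members divide into 19 above, 76 within and 13 below. These shares depended on the added 1: with 0.1 in its place, in the rule too, G was 2-fold or more above YG in 31.9% of 185 members and below in 12.4%, beside 25.4% and 18.1% of all, and with nothing added the shares were 32.8% and 13.9% of 201 members, beside 25.7% and 18.4%. The G and YG values are tied to each other by the rule, which asks that each be at least 2-fold above W, so these shares are not a finding about recovery.

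The 5 members that came back closest to the same level had depths between 1.01 and 1.98. Unigene77566 had an FPKM of 14.6 at YG, 5.33 at W and 14.7 at G, and its FPKM at G was 1.01 times that at YG as a plain ratio. Unigene170231, with 5.79, 1.43 and 5.69, and unigene170387, with 6.14, 2.44 and 5.94, ended just under the level they began with. Unigene126026 did the same with 5.20, 1.08 and 4.91. These 4 unigenes and the deepest member, unigene129211, had the G values closest to YG.

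The 15 members that overshot had a median FPKM of 3.05 at YG, 0.789 at W and 13.3 at G. They were put in this class by G against YG, so a low YG goes with the choice, though not in every member. The largest overshoot was that of unigene46864, with 2.00 at YG, 0.475 at W and 19.7 at G, so G was 9.85 times YG as a plain ratio. It was followed by unigene174371 (2.39, 0.680 and 18.9), unigene167368 (3.16, 0.789 and 19.8), unigene26854 (3.11, 0.845 and 17.0) and unigene122478 (2.51, 0.348 and 12.05). In all 5 the fall into W was smaller than the rise out of it, and G was the highest stage by far. Abundant members of this class were unigene29380, with 15.8, 6.90 and 59.2, and unigene1476, with 18.3, 5.11 and 41.3.

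The 11 members that recovered only in part had a median FPKM of 12.3 at YG, 1.26 at W and 4.22 at G. Their class was also set by G against YG, so a high YG goes with the choice. In unigene52685 the FPKM was 65.0 at YG, 6.88 at W and 14.9 at G, and in unigene5021 it was 23.5, 1.69 and 5.06. Both lost most of their YG level and regained little of it. Unigene52768 (11.0, 0.538 and 2.24), unigene23374 (56.9, 6.95 and 18.5) and unigene168261 (9.26, 0.708 and 2.47) had the other largest differences between G and YG, and unigene147093, with 45.8, 7.66 and 20.2, was the most abundant of the class after unigene52685 and unigene23374.

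Few members were highly expressed. The highest stage was under an FPKM of 10 in 69 members, or 63.9%, against 51.2% of all unigenes that passed the filters, and it reached 20 in 12. Unigene26262 was the most abundant at G, with 53.7 at YG, 20.1 at W and 87.5 at G, and unigene36722 had 52.3, 19.7 and 47.2. Both kept a W level above the median of all unigenes that passed the filters, which was 6.74. Unigene6902, with 27.9, 5.60 and 15.3, completed the 10 members with the highest values.

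The members were not spread evenly over the assembly. Unigenes are numbered from 1 to 179951, and the number was not used by the rule. Numbers above 120000, a bound chosen after the values were seen, held 62 members, or 57.4%, against 16.3% of all unigenes that passed the filters. Members were 2.69% of the unigenes that passed there, 1.40% between 80001 and 90000 and 0.280% over all other numbers. The highest share in a block of 10000 was 5.94%, 6 of the 101 unigenes above 170000.

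The peaks at W were concentrated largely, but not only, in the same numbers. Of the 288 peaks at W, 49.3% were numbered above 120000, and peaks were 6.16% of the unigenes that passed there, against 0.989% outside both ranges. Outside these ranges the share was uneven: it was 2.55% from 100001 to 110000 and 4.76% from 110001 to 120000, where 0 members lay. Of the unigenes lowest at YG, 18.3% were numbered above 120000, and of those lowest at G, 28.7%. Restricted to unigenes whose highest stage was under an FPKM of 10, the shares above 120000 were 66.7% of the members, 62.5% of the peaks and 21.7% of all that passed the filters. What sets the numbering is not stated in the sources used here, and its part in the pattern was not tested.

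**Figure D4:**
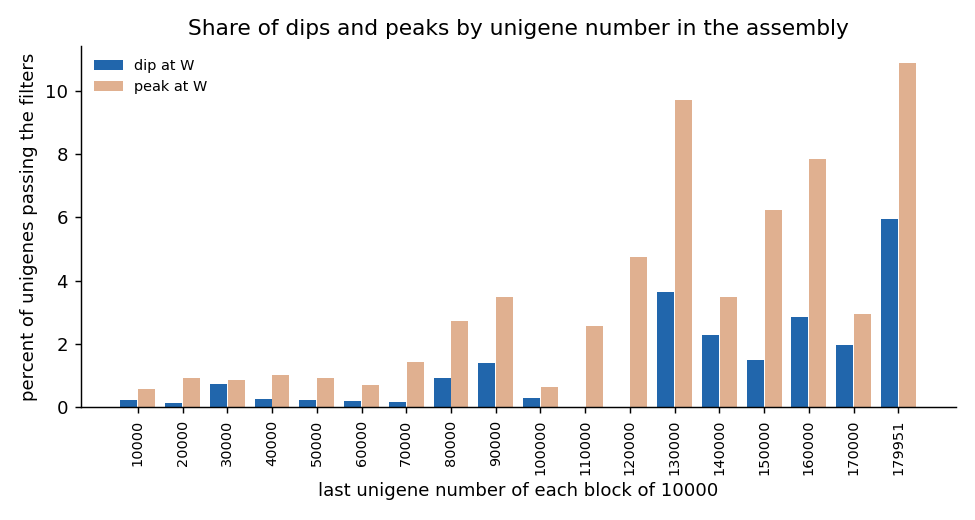
Percent of the unigenes passing the filters that dip (blue) or peak (light brown) at W, in blocks of 10000 unigene numbers labelled by the last number of the block. Shares of dips are at most 0.906% up to number 80000, reach 1.40% in the next block and range from 1.49% to 5.94% above 120000. Shares of peaks range from 2.93% to 10.9% above 120000 and reach 4.76% in the block ending at 120000, which holds 0 dips.

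Members also lay close to each other by number, though never side by side. Another member stood within 100 numbers of 46 members, or 42.6%, whereas 13.0% of the other unigenes that passed the filters had a member that close. The comparison ran over all numbers and was not made within ranges. It is therefore not separate from the concentration of members above 120000 and between 80001 and 90000. The smallest distance was 9, and no pair had consecutive numbers. Groups of 4 were formed by unigene87417, unigene87435, unigene87453 and unigene87473, and by unigene88240, unigene88274, unigene88283 and unigene88297. In the first of these groups the W values were 1.12, 4.60, 1.59 and 0.589, and in the second 2.96, 1.73, 0.899 and 1.43. Of the 216 unigenes numbered directly next to a member, 22 passed the filters. Only 2 of the 22 were lowest at W by any amount, against 21.3% of all that passed. The median steps of the 22 were 0.20 into W and -0.13 out of it, so as a set they did not share the dip. The rest of the 216 were not examined.

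Many of the low W values were repeated exactly in other unigenes. An FPKM is a number of fragments scaled by unigene length and library size, so unigenes of equal length with the same few fragments receive the same value. A W value given to 6 significant digits recurred in at least 1 other unigene for 55 of the members, or 50.9%, and for 36 of them it was held by at least 10 unigenes. The same was true of 3.70% of the members at YG and 6.48% at G. Over all unigenes that passed the filters, 6.06% of the values recurred at YG, 5.31% at W and 5.84% at G. The rule requires a low W, and low values recurred more often than others.

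Among unigenes with low W values, the members had more repeats than the others. The 2 sets were not matched on unigene number or on the exact W level. Below an FPKM of 2.5 at W, a bound chosen after the values were seen, 50 of 81 members (61.7%) had a recurring value, against 24.3% of the 1302 other unigenes that passed the filters. The W value of unigene147385, 1.41, was held by 57 unigenes, that of unigene174371, 0.680, by 41, and those of unigene127833 and unigene168261, 0.708, were identical and held by 38. The fragments and lengths behind these values were not analysed here, and the part of small fragment numbers in the dip was not tested. In the peaks at W the repeats lay on the other side, at 33.0% of the YG values and 36.5% of the G values.

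**Figure D5:**
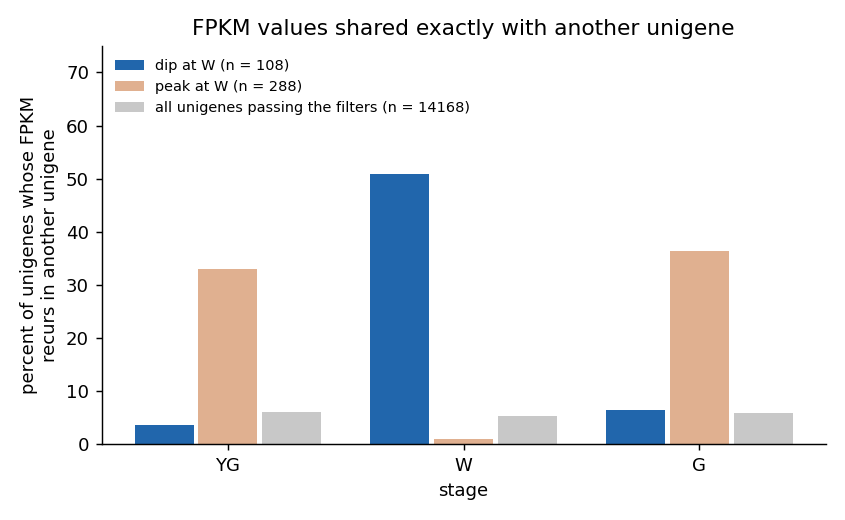
Percent of unigenes whose FPKM at a stage was held, to 6 significant digits, by at least 1 other unigene, for the dips, the peaks and all unigenes passing the filters. The dips stand out at W (50.9%) and the peaks at G (36.5%) and YG (33.0%), each at the stages where they are low.

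Among the members, repeated values and high numbers went together. A recurring W value was found in 69.4% of the 62 members numbered above 120000, in 62.5% of the 16 between 80001 and 90000, and in only 2 of the remaining 30. The shares over all unigenes in these ranges were not counted, so this cannot be called particular to the members. These 30 members were also more abundant, with a median FPKM of 9.03 at YG, 2.44 at W and 10.4 at G, against 5.70, 1.18 and 6.25 above 120000. They include unigene26262, unigene36722, unigene22047, unigene32634, unigene13876 and the partly recovering unigene52685 and unigene23374. Without the unigenes whose W value recurs, 53 members remained, of which G was at least 2-fold above YG in 7 and at least 2-fold below in 7. The matching shares over all unigenes were not counted in this setting, so these counts are not a finding about the members.

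The study's lists name 155 unigenes for carotenoid, chlorophyll and theanine biosynthesis, of which 78 passed the filters. From YG to W, 1 of the 78 (1.28%) was at least 2-fold lower, beside 7.83% of all unigenes that passed the filters. It was the PORA unigene62053, for a light-dependent protochlorophyllide oxidoreductase of chlorophyll synthesis. Its values were 29.0 at YG, 13.2 at W and 0.822 at G, so it went on down. From W to G, 12 (15.4%) were at least 2-fold higher, beside 12.5% of all. None of the 78 met both conditions, and with dips at 0.762% of all unigenes that passed the filters, a list of this size would hold few or none at that share. Whatever the size of the change, 11 of the 78, or 14.1%, were lowest at W, against 21.3% of all unigenes that passed the filters.

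The shallow dips among the pathway unigenes were mostly in the theanine list, where 7 of 21 (33.3%) were lowest at W. The numbers were 2 of 38 for chlorophyll and 2 of 19 for carotenoids, and the share over all unigenes that passed the filters was 21.3%. Theanine is the amino acid that gives tea its umami taste, made from glutamate and ethylamine. AIDA, alanine decarboxylase, supplies the ethylamine, and GOGAT, glutamate synthase, the glutamate. The unigenes listed as AIDA are putative: they were annotated as arginine decarboxylases and chosen for similar domains. The deepest was the putative AIDA unigene4834, with an FPKM of 12.02 at YG, 7.80 at W and 15.4 at G and a depth of 0.57, followed by the putative AIDA unigene89828 with 22.8, 17.4 and 31.3. The putative AIDA unigene37160 had 18.5, 15.6 and 37.7, a small fall and a rise past 2-fold. Other unigenes of the list went the other way into W and rose past 2-fold at both steps. These were the theanine synthase unigene39849 (3.34, 10.8 and 27.9) and unigenes listed as glutamine synthetase or theanine synthase. The latter were unigene37325 (8.95, 26.5 and 66.1), unigene25911 (10.6, 29.1 and 67.8) and unigene58305 (32.2, 106 and 243).

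The GOGAT unigenes lowest at W were unigene168460 (16.5 at YG, 13.2 at W and 20.5 at G), unigene3473 (5.56, 4.34 and 5.97) and unigene92537 (6.98, 6.27 and 9.92), and the last of the theanine list was the glutamine synthetase or theanine synthase unigene13585 (104, 100.4 and 153). In each the fall was under 0.30 on the log2(FPKM + 1) scale, well short of the members. In the chlorophyll list, the HEMB unigene88206, for an early enzyme of tetrapyrrole synthesis, had 3.14, 2.36 and 5.02, and the HEMA unigene36734, for glutamyl-tRNA reductase, had 3.56, 3.34 and 5.72. In the carotenoid list, the ispE unigene133370, for a kinase of the plastid isoprenoid pathway, had 4.85, 4.004 and 5.26, and the PSY unigene26809, for phytoene synthase, had 19.4, 18.8 and 31.7. All of these dips were shallower than any member's. The pathway unigenes lowest at W were chosen for naming after their values were seen.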

How the data were processed

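Leaves gave 9 RNA-seq libraries, 3 for each stage. The authors filtered the reads, assembled unigenes de novo with Trinity and computed FPKM with Cufflinks, whose version is 2.1.1 in the submitters' processing notes and another one in the paper's methods. The deposited FPKM values hold 1 value per unigene and stage. How libraries were combined and which aligner was used is not given in the sources used here, and the fragments behind a value are unknown. No unigene identifier matched the reference gene table (0 of 179951), so no position or sequence is given.

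The 3 tables were joined by identifier. Changes are differences of log2(FPKM + 1), later minus earlier stage, a scale that understates changes of low values. No test could be run on 1 value per stage. The members and lists were chosen with earlier results of these data known. Named unigenes are the 10 deepest, the 10 most abundant, the 5 most above, 5 most below and 5 closest to the YG level, the 4 nearest each side of the threshold, and any pathway unigene that meets the rule (there was none). No members had consecutive numbers, so groups within 100 numbers were named instead, and the choice of these and of the pathway unigenes was made with their values in view. The alternatives were pseudocounts of 0.1 and 0, FPKM minimums of 1, 10 and none, values of 0 kept, 3 scalings, thresholds of 1.5-fold and 4-fold, and blocks of 5000 numbers. Leaving out unigenes with recurring W values or with numbers above 120000 was added after the values were seen. The counting step was tested on simulated data with little noise and large changes at W, planted only in abundant unigenes. That check covers the counting itself and not low values such as most members had. Python 3.11.15, pandas 2.3.3, numpy 2.4.6, scipy 1.17.1 and matplotlib 3.10.9 were used.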

Additional observations from a re-analysis of the deposited data

How the results depend on the processing

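The number of members depended on the threshold and the treatment of low values more than on scaling. Upper-quartile scaling gave 99 members (95 of the 108 kept), quantile normalization 103 (93 kept) and scaling to the sum without the 10 highest unigenes 96 (94 kept). The members whose G value was 2-fold or more below YG (11 without it) numbered 7 under the first and the last of these. A pseudocount of 0.1 gave 185 members, with G 2-fold or more above YG in 59 and below it in 23. Without a pseudocount there were 201 members, 66 and 28 of these, and 1224 unigenes lowest at G alone. A minimum FPKM of 1, or none, gave 200 members, 577 peaks and 1238 unigenes lowest at G alone. A minimum of 10 gave 39, 128 and 438, with 7 members 2-fold or more below YG at G. Keeping unigenes listed at 0 gave 197 members and 502 peaks, with G 2-fold or more above YG in 60 members and below it in 22. At 1.5-fold there were 305 members, 690 peaks, 2272 unigenes lowest at YG alone and 1702 at G alone, with G 2-fold or more above YG in 53 members and below it in 29. At 4-fold there were 0 members, and so 0 higher or lower in G, but 43 peaks, 213 unigenes lowest at YG alone and 116 at G alone. Lower filters and smaller folds admit more unigenes by construction; the cause of the other shifts was not tested. The next settings were chosen after the values were seen. Without recurring W values 53 members were left, 7 higher and 7 lower in G. Without numbers above 120000 there were 46 members and 146 peaks, with 5 and 6 members higher and lower in G. Among the alternatives, the matching shares over all unigenes were counted only for the changed pseudocounts. The percent of members higher in G than in YG stayed between 52.8 and 66.7 over the alternatives that left members, and the median depth between 0.84 and 1.45. No paired analysis was possible because the files hold 1 combined value per stage, and for the same reason no replicate could be left out.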

Other observations

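The rule leaves out unigenes listed at 0 at a stage. Of those listed at 0 at exactly 1 stage, 5798 were at 0 at W, 10382 at YG and 12334 at G. With an FPKM of at least 5 at another stage there were 120 of the 5798 at W, 345 of the 10382 at YG and 284 of the 12334 at G. The number was lowest at W, which also had the fewest unigenes at 0 to begin with. Over all unigenes, W also had the most values above 0, 150130 against 142798 at YG and 140914 at G. Of the 120 listed at 0 only at W, 89 had an FPKM of at least 1 at both YG and G. A value of 0 can be a failed estimate, so no fold is given for them.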
